A study of Caenorhabditis elegans with 16 samples.

Results

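The genes described here are 6 genes of the *C. elegans* p38 mitogen-activated protein kinase (MAPK) innate immune pathway: *tir-1*, *pmk-1*, *pmk-2*, *pmk-3*, *atf-7* and *vhp-1*. They were taken by name, and all 6 were found among the 8347 named genes of the deposited values. The animals were *osm-3(dh441)IV* mutants, whose mutation from a chemical mutagenesis screen lies in a kinesin motor of ciliated sensory neurons, and WT (N2) animals. Each genotype was collected as day 1 adults at 20 °C after 6 hr with 10 µg/mL tunicamycin (TM), an inhibitor of N-glycosylation that causes stress in the endoplasmic reticulum (ER), or with vehicle. The 4 groups, TM-treated *osm-3* mutants, TM-treated WT animals, vehicle-treated *osm-3* mutants and vehicle-treated WT animals, held 4 biological replicates each, 16 libraries of whole animals in all. The study asked, in other experiments, whether the TM resistance of *osm-3* mutants depends on this pathway, and the comparisons below ask how the transcripts of its genes stood in each genotype and treatment.

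In *C. elegans*, TIR-1, a TIR domain protein and orthologue of mammalian SARM1, acts at the head of a kinase cascade of NSY-1, SEK-1 and the p38 kinase PMK-1. In the intestine PMK-1 phosphorylates the transcription factor ATF-7, which in its unphosphorylated form represses immune genes. PMK-2 acts with PMK-1 in the nervous system, PMK-3 lies downstream of the kinases DLK-1 and MKK-4 in neurons, where the cascade is known for its part in synapse formation and axon regrowth, and the dual-specificity phosphatase VHP-1 restrains p38 and JNK type kinases. The cascade is regulated chiefly by phosphorylation, which RNA levels do not show. *nsy-1* and *sek-1* were not analysed here.

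The 3 kinase genes form one operon and lie head to tail on the plus strand of chromosome IV (genome build WBcel235, Ensembl annotation release 115). *pmk-3* (WBGene00004057) spans chrIV:8139219-8143154, *pmk-2* (WBGene00004056) chrIV:8143500-8148648 and *pmk-1* (WBGene00004055) chrIV:8148794-8151266. The gap between *pmk-3* and *pmk-2* is 345 bases, that between *pmk-2* and *pmk-1* is 145 bases, and the whole cluster covers 12048 bases. The *osm-3* gene is on the same chromosome, at chrIV:3796300-3801052. *tir-1* (WBGene00006575) lies on the minus strand at chrIII:3869590-3901642 with 13 annotated transcripts, *atf-7* (WBGene00000223) on the minus strand at chrIII:4491627-4499045 with 8, and *vhp-1* (WBGene00006923) on the plus strand at chrII:5323276-5340829 with 8. *atf-7* shares bases with the protein-coding gene *C07G2.5* on the same strand and *vhp-1* with the noncoding RNA *F08B1.8* on the same strand, so reads of those overlaps could have been counted for either gene, while *pmk-1*, *pmk-2* and *pmk-3* overlap no annotated gene.

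The deposited values are variance-stabilized log2 values, which were converted back to whole reads. Reads on named genes per library ranged over 4254496 to 7928905 (TM-treated *osm-3* mutants), 6673924 to 8144875 (TM-treated WT animals), 4173301 to 7928703 (vehicle-treated *osm-3* mutants) and 6426381 to 7887472 (vehicle-treated WT animals). Replicate 3 of vehicle-treated *osm-3* mutants, with 4173301 reads, stood apart as the shallowest of its group. *osm-3* itself was not analysed here, so the genotype was not checked on its own transcript, and shares of all genes below are shares of the genes analysed here. Reads below are normalized reads, that is reads divided by the size factor of the library, and differences are differences of the variance-stabilized log2 values from a limma fit over 4115 genes, with p-values adjusted over all of them (Benjamini-Hochberg, threshold 0.05). These differences are smaller than log2 ratios of reads, the more so for weakly expressed genes. All 6 genes passed the filter on low values.

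Per kilobase of exon, the order of the levels was much alike in the 4 groups. *atf-7* was the most abundant, at 898 ± 146 normalized reads per kilobase in TM-treated *osm-3* mutants, 901 ± 106 in TM-treated WT animals, 992 ± 111 in vehicle-treated *osm-3* mutants and 929 ± 49 in vehicle-treated WT animals (mean ± SD, n = 4). *pmk-1* and *pmk-3* came next and their ranges overlapped in every group. The mean of *pmk-3* was ahead in *osm-3* mutants, at 319 against 296 for *pmk-1* under TM and 368 against 312 under vehicle, and the mean of *pmk-1* was ahead in WT animals, at 414 against 393 for *pmk-3* under TM and 391 against 382 under vehicle. *pmk-2* followed at 178 to 218, then *vhp-1* at 89.5 to 148 and *tir-1* at 33.1 to 44.2 normalized reads per kilobase, each with a range apart from its neighbours within each group.

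The genotype contrasts held most of the differences. Compared with WT animals, *osm-3* mutants had less *pmk-1* RNA with either treatment and more *vhp-1* RNA under vehicle, and *pmk-3* was lower in the mutants under TM by a narrow margin. Of the 6 genes, 2 passed the test under TM and 2 under vehicle, where 19.2% and 10.6% of all 4115 genes did. No member passed it for TM against vehicle in either genotype, where 0.0729% of all genes passed in *osm-3* mutants and 1.56% in WT animals. That fit did not pair libraries by replicate number. With libraries of the same number paired within each genotype, 360 of the 4115 genes passed in *osm-3* mutants and 244 in WT animals. In WT animals *vhp-1* was then the 1 member that passed (adjusted p = 0.013 by limma).

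**Figure D1:**
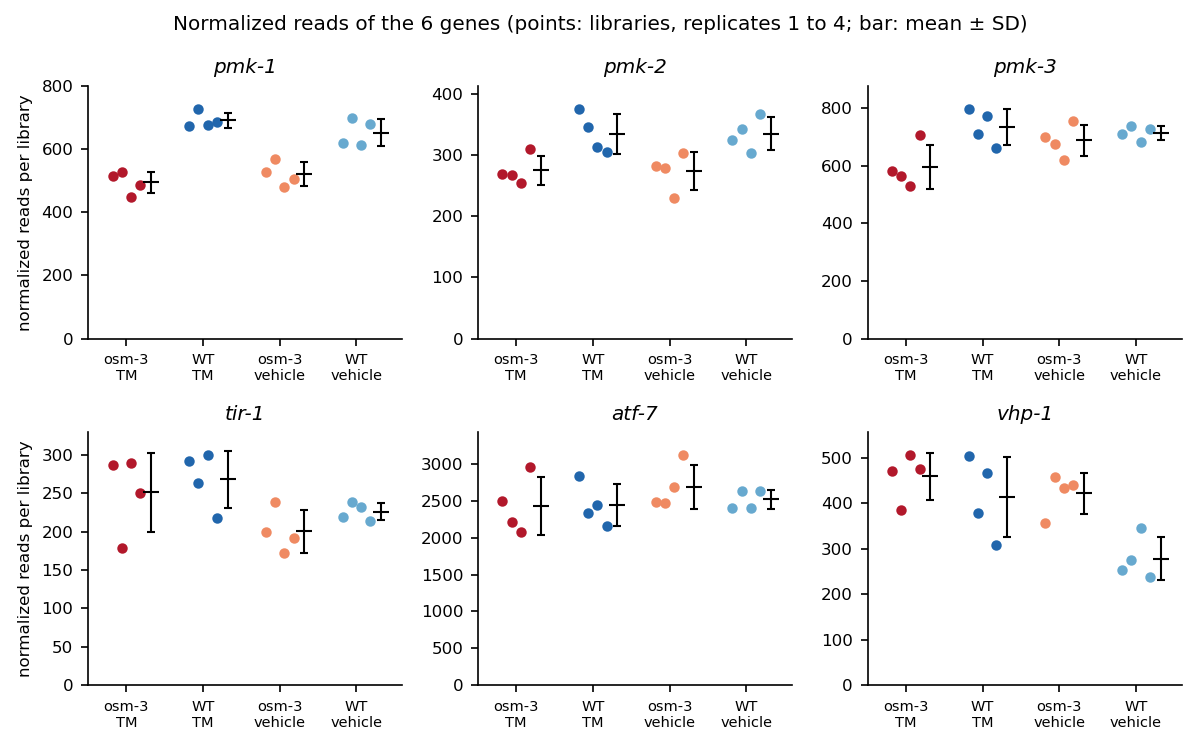
Normalized reads (y axis, linear, from 0) of the 6 genes in the 16 libraries. Points are libraries in order of replicate number, crossed bars the mean ± SD of 4, and groups run from TM-treated *osm-3* mutants at the left to vehicle-treated WT animals at the right. The *pmk-1* points of *osm-3* mutants lie between 450.4 and 571, all below the WT points at 613 to 729, and the *vhp-1* points of vehicle-treated WT animals, 237 to 345, lie below all those of vehicle-treated *osm-3* mutants.

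The kinase PMK-1 is the p38 of the intestinal immune response. Under TM, its gene had 515, 528, 450.4 and 488 normalized reads in *osm-3* mutants, against 675, 729, 677 and 688 in WT animals. Under vehicle it had 529, 571, 481 and 506 in *osm-3* mutants, against 619.5, 700.5, 613 and 682 in WT animals. The lowest WT library thus lay above the highest *osm-3* library with both treatments, a separation that 16.1% of all genes tested showed under TM and 20.3% under vehicle. The mean of the *osm-3* mutants was 28.5% lower than that of WT animals under TM and 20.2% lower under vehicle. The log2 difference, *osm-3* minus WT, was -0.37 ± 0.068 under TM (SE, adjusted p = 0.00077) and -0.25 ± 0.068 under vehicle (adjusted p = 0.023). Averaged over both treatments it was -0.31 ± 0.048 (adjusted p = 0.0001). In this and the other averages over treatments, TM and vehicle libraries of the same replicate number counted as independent, so p-values can be too low. The call under TM held in all 27 alternative fits that tested the gene, with adjusted p between 0.00011 and 0.021. The call under vehicle was lost without *osm-3* vehicle replicate 1, 3 or 4 (adjusted p 0.054, 0.093 and 0.067) and without WT vehicle replicate 2 or 4 (adjusted p 0.083 and 0.076), while the difference itself lay between -0.28 and -0.22 whichever library was left out.

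TM left *pmk-1* near its vehicle level in each genotype. TM minus vehicle was -0.056 ± 0.068 in *osm-3* mutants (adjusted p = 0.66) and 0.067 ± 0.068 in WT animals (adjusted p = 0.995), and the difference between these responses, *osm-3* minus WT, was -0.12 ± 0.097 (adjusted p = 0.90).

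PMK-2 is the p38 that works beside PMK-1 in neurons. Under TM its gene had 269, 268, 254 and 309 normalized reads in *osm-3* mutants, against 376, 347, 313 and 305 in WT animals. Under vehicle it had 283, 279, 229.7 and 304 in *osm-3* mutants, against 326, 344, 304.2 and 367 in WT animals. The groups overlapped under TM, through *osm-3* replicate 4 and WT replicate 4, and met without overlap under vehicle, where 303.9 in the highest *osm-3* library stood beside 304.2 in the lowest WT library. Of all genes tested, 20.3% did not overlap between the genotypes under vehicle. The mean was 17.9% lower in *osm-3* mutants under TM and 18.3% lower under vehicle. The differences, -0.19 ± 0.073 under TM and -0.19 ± 0.073 under vehicle, did not pass the threshold (adjusted p = 0.083 and 0.11). When libraries of the same replicate number were paired as a block, the difference under vehicle passed (adjusted p = 0.039), as did 735 of the 4115 genes. The difference under TM passed without *osm-3* TM replicate 4 (-0.22, adjusted p = 0.032), in a fit where 1596 of the 4115 genes passed, against 792 in the reported fit. Averaged over both treatments *pmk-2* was lower in *osm-3* mutants by the unblocked fit (-0.19 ± 0.052, adjusted p = 0.011), with the limit on such p-values given for *pmk-1*. TM minus vehicle was 0.0056 ± 0.073 in *osm-3* mutants and -0.001 ± 0.073 in WT animals (adjusted p = 0.97 and 0.998).

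PMK-3 is the p38 of the neuronal DLK-1 cascade and its gene is the most upstream of the operon. Under TM it had 579, 564, 529 and 707 normalized reads in *osm-3* mutants, against 796, 709.5, 771 and 660 in WT animals. Under vehicle it had 699, 675, 621 and 754 in *osm-3* mutants, against 709, 738, 681 and 727 in WT animals. The TM-treated groups overlapped through 1 library each, *osm-3* replicate 4, the highest of its group, and WT replicate 4, the lowest of its group. The vehicle-treated groups covered much the same range. The mean of *osm-3* mutants was 0.81 times that of WT animals under TM, with a difference of -0.24 ± 0.081 (adjusted p = 0.044), and 0.963 times under vehicle, with a difference of -0.045 ± 0.081 (adjusted p = 0.82). The call under TM stood close to the threshold and was lost in 17 of 28 alternative fits, among them those that left out replicate 1, 2 or 3 of TM-treated *osm-3* mutants (adjusted p 0.0996, 0.083 and 0.13), those that left out replicate 1, 2 or 3 of TM-treated WT animals (adjusted p 0.12, 0.068 and 0.0999) and those that left out *osm-3* vehicle replicate 1 or 2 or any WT vehicle library, which left the difference as it was and changed the shared estimate of spread (adjusted p 0.0501 to 0.0595).

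TM minus vehicle of *pmk-3* was -0.17 ± 0.081 in *osm-3* mutants (adjusted p = 0.36) and 0.031 ± 0.081 in WT animals (adjusted p = 0.995). In *osm-3* mutants all 4 pairs of libraries with the same replicate number were lower under TM, by log2 values of -0.21, -0.20, -0.18 and -0.075, and the contrast did not pass with blocks within each genotype either (adjusted p = 0.11). Without *osm-3* TM replicate 4 this difference was -0.23 with an adjusted p of 0.044, in a fit where 793 of the 4115 genes passed, against 3 in the reported fit. The difference between the responses was -0.20 ± 0.11 (adjusted p = 0.90).

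**Figure D2:**
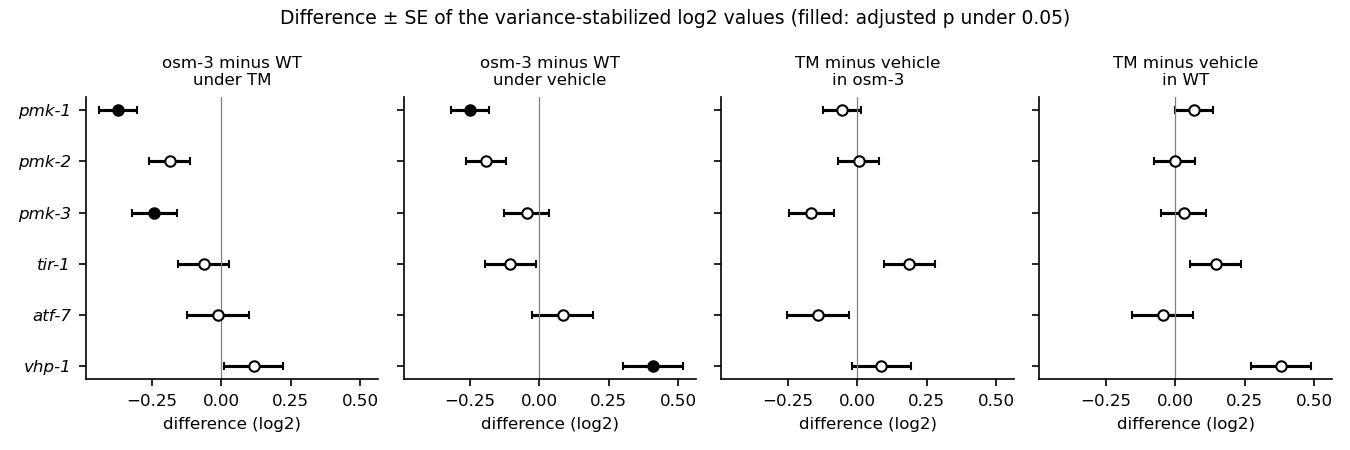
Differences of the variance-stabilized log2 values (x axis, log2 units, points with bars of 1 SE) of the 6 genes in 4 contrasts, *osm-3* minus WT under TM and under vehicle and TM minus vehicle in *osm-3* mutants and in WT animals. Filled points have an adjusted p under 0.05: *pmk-1* at -0.37 and *pmk-3* at -0.24 under TM, and *pmk-1* at -0.25 and *vhp-1* at 0.41 under vehicle.

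Because the kinase genes share an operon, their reads were also set against each other within each library, where the size factor cancels. These ratios were chosen after the values above had been seen, and each was compared by an exact two-sided permutation test of 4 against 4 libraries, which cannot give a p below 0.0286. Under vehicle, *pmk-1* had 0.757, 0.846, 0.775 and 0.670 reads per *pmk-3* read in *osm-3* mutants, against 0.873, 0.949, 0.900 and 0.938 in WT animals. *pmk-2* had 0.398 ± 0.019 reads per *pmk-3* read in vehicle-treated *osm-3* mutants and 0.469 ± 0.025 in vehicle-treated WT animals (SD, n = 4). In both cases the ranges were apart, with log2 differences of -0.27 for *pmk-1* and -0.24 for *pmk-2* that did not pass after adjustment (exact permutation p = 0.0286 each, the smallest possible, adjusted p = 0.11 over 12 tests). As the ratios were picked on the same values, they restate the differences of the single genes and add no support to them. None of the 12 ratio tests passed after adjustment.

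Under TM the ratios to *pmk-3* differed less between the genotypes. *pmk-1* had 0.842 ± 0.11 reads per *pmk-3* read in TM-treated *osm-3* mutants and 0.949 ± 0.10 in TM-treated WT animals, and *pmk-2* had 0.464 ± 0.019 and 0.457 ± 0.036 (SD, n = 4 each, exact permutation p = 0.26 and 0.74). Within *osm-3* mutants the ratio of *pmk-2* to *pmk-3* was 0.464 ± 0.019 under TM and 0.398 ± 0.019 under vehicle, again with ranges apart (log2 difference 0.22, exact permutation p = 0.0286, adjusted p = 0.11). The ratio of *pmk-1* to *pmk-2* overlapped in all 4 contrasts and was 1.81 ± 0.18 in TM-treated *osm-3* mutants, 2.08 ± 0.20 in TM-treated WT animals, 1.92 ± 0.20 in vehicle-treated *osm-3* mutants and 1.95 ± 0.087 in vehicle-treated WT animals.

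**Figure D3:**
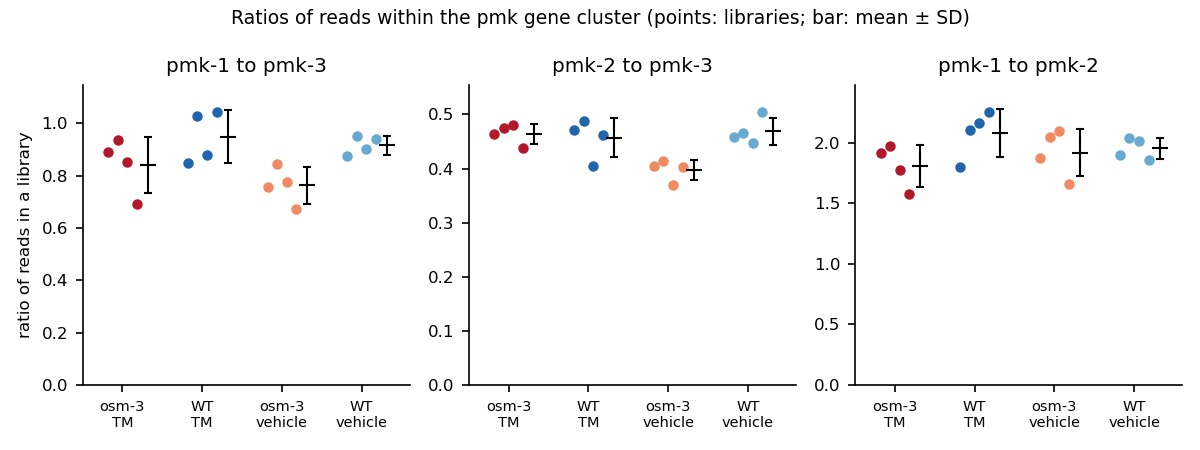
Ratios of reads within a library (y axis, linear, from 0) for *pmk-1* to *pmk-3*, *pmk-2* to *pmk-3* and *pmk-1* to *pmk-2* in the 4 groups, from TM-treated *osm-3* mutants at the left to vehicle-treated WT animals at the right, with points for libraries and crossed bars for the mean ± SD of 4. In vehicle-treated *osm-3* mutants the ratio of *pmk-2* to *pmk-3* lies between 0.370 and 0.413, below the 0.447 to 0.505 of vehicle-treated WT animals.

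TIR-1 heads the cascade, and its gene was the least abundant per kilobase. Under TM it had 286, 179, 289 and 251 normalized reads in *osm-3* mutants, against 292, 263, 299 and 217 in WT animals. Under vehicle it had 199, 239, 172 and 192 in *osm-3* mutants, against 219, 238, 233 and 214 in WT animals. The genotypes overlapped with both treatments, and the differences were -0.063 ± 0.091 under TM and -0.10 ± 0.091 under vehicle (adjusted p = 0.61 and 0.57). TM minus vehicle was 0.19 ± 0.091 in *osm-3* mutants and 0.15 ± 0.091 in WT animals (adjusted p = 0.36 and 0.87), and averaged over the genotypes 0.17 ± 0.065 (adjusted p = 0.24).

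ATF-7, the transcription factor that PMK-1 phosphorylates, had the group means closest to each other among the 6 genes. Under TM it had 2498, 2209, 2074 and 2967 normalized reads in *osm-3* mutants, against 2839.6, 2335, 2451 and 2161 in WT animals. Under vehicle it had 2490.6, 2471, 2689.7 and 3118 in *osm-3* mutants, against 2409, 2637, 2404 and 2635 in WT animals. The groups overlapped in all 4 contrasts. The differences between genotypes were -0.011 ± 0.11 under TM and 0.084 ± 0.11 under vehicle, and TM minus vehicle was -0.14 ± 0.11 in *osm-3* mutants and -0.045 ± 0.11 in WT animals (adjusted p 0.48 to 0.995). With quantile normalization the sign turned in 3 of these 4 differences, all but *osm-3* minus WT under vehicle. With that setting the genotype difference averaged over treatments passed (0.13, adjusted p = 0.037).

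VHP-1, the phosphatase that turns p38 and JNK type kinases off, showed the opposite direction to *pmk-1* between the genotypes. Under vehicle its gene had 356, 458, 432 and 439.6 normalized reads in *osm-3* mutants, against 253, 275, 345 and 237 in WT animals. Every vehicle-treated *osm-3* library was above every vehicle-treated WT library, a separation in either direction that 20.3% of all genes tested showed, and the mean was 51.8% higher. The difference was 0.41 ± 0.11 (adjusted p = 0.017). That call was lost without *osm-3* vehicle replicate 2 or 3 (adjusted p 0.0521 and 0.0517) and without WT vehicle replicate 1 or 4 (adjusted p 0.057 and 0.062), with the difference between 0.36 and 0.48 whichever library was left out. Under TM *vhp-1* had 469.6, 384, 504 and 475 normalized reads in *osm-3* mutants, against 504, 377, 465 and 308 in WT animals. These ranges overlapped and the difference was 0.12 ± 0.11 (adjusted p = 0.43). Averaged over both treatments *vhp-1* was higher in *osm-3* mutants (0.26 ± 0.076, adjusted p = 0.014), with the limit on such p-values given for *pmk-1*.

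The vehicle-treated WT animals were the group with the lowest *vhp-1*, and they serve as reference both for the *osm-3* mutants under vehicle and for TM in WT animals. TM-treated WT animals had 1.49 times the mean of vehicle-treated WT animals, with overlap, as WT TM replicate 4 at 308 lay below WT vehicle replicate 3 at 345. TM minus vehicle in WT animals was 0.38 ± 0.11 (adjusted p = 0.099), and all 4 pairs of libraries with the same replicate number were higher under TM, by 0.68, 0.30, 0.30 and 0.24. When replicate numbers entered the fit as a block, the difference passed the threshold, at an adjusted p of 0.034 with a block shared by all groups and of 0.013 with blocks within each genotype. It also passed without WT TM replicate 4 (0.47, adjusted p = 0.012) and without WT vehicle replicate 3 (0.45, adjusted p = 0.048). Without WT TM replicate 4, 161 of the 4115 genes passed, against 64 in the reported fit. In *osm-3* mutants TM minus vehicle was 0.087 ± 0.11 (adjusted p = 0.66). The difference between the responses, -0.29 ± 0.15, was not past the threshold (adjusted p = 0.90 by limma). Averaged over genotypes, TM minus vehicle was 0.23 ± 0.076 with an adjusted p of 0.15 in the unblocked fit, where 1.7% of all genes and 0 of the 6 passed. With blocks within each genotype the adjusted p of *vhp-1* was 0.020, and 617 of 4115 genes and 1 of the 6, *vhp-1*, passed.

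Over the 6 genes, the median difference was -0.12 under TM and -0.075 under vehicle for *osm-3* minus WT, against -0.10 and -0.041 over all 4115 genes. For TM minus vehicle it was -0.025 in *osm-3* mutants and 0.049 in WT animals, against -0.036 and -0.016. The shift of -0.10 over all genes under TM was -0.058 with quantile normalization, -0.071 after median centring of the libraries and -0.15 for log2 of normalized reads plus 1. *pmk-1* remained lower in *osm-3* mutants under TM with both scalings, and *pmk-3* lost its call with both (-0.18 and -0.21, adjusted p = 0.075 and 0.064). By limma with an unadjusted p under 0.05, 0 of the 6 genes differed between TM and vehicle in *osm-3* mutants and 1, *vhp-1*, in WT animals, and 0 showed a difference between the responses, where 12%, 8.99% and 4.91% of all genes did. At an adjusted p under 0.05, limma voom on the recovered reads called 0 of the 6 in these 3 contrasts, as did the reported fit. Of all genes, 0.486% showed a difference between the responses, and 30.3% a genotype difference averaged over treatments, where 3 of the 6 did.

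Tissue composition can bear on such values, since in whole animals fewer cells of a type and less RNA per cell cannot be told apart. All 6 lists of tissue markers were represented with 0 markers at 0 reads in any group. Sperm genes (10 major sperm protein genes, which are alike enough in sequence that reads may be split among them) summed to 2987 to 6464 normalized reads (TM-treated *osm-3* mutants), 692 to 992 (TM-treated WT animals), 3419 to 5699 (vehicle-treated *osm-3* mutants) and 808 to 1287 (vehicle-treated WT animals). Neuronal genes (8 of 12 listed) summed to 2530 to 3290.0, 1939 to 2448, 2865 to 3484 and 2301 to 2399 in the same order. Both sums were higher in *osm-3* mutants without overlap, in the direction of *vhp-1* and against that of *pmk-1*. Among the single neuronal genes, *egl-21*, *egl-3* and *unc-104* passed under vehicle (0.32, 0.42 and 0.34, limma adjusted p = 0.0081, 0.016 and 0.032). *ida-1*, *rab-3*, *rgef-1*, *ric-19* and *snt-1* did not (0.31, 0.074, 0.12, 0.011 and 0.089, adjusted p 0.065 to 0.94). Under TM *snt-1* and *unc-104* passed (0.31 and 0.44, adjusted p = 0.0089 and 0.0037), and the others did not. Of all genes, 6.37% were higher under vehicle and 9.5% under TM. Muscle genes (5 of 10) reached 45324 to 63643, 34933 to 49883, 52497 to 70404 and 36916 to 55323, with overlap. Of 4 intestinal genes tested, 1 was lower in *osm-3* mutants under TM and 0 under vehicle, beside 9.74% and 4.28% of all genes. The lower gene was *cpr-1*, a cysteine protease gene (-0.53 ± 0.15 under TM, adjusted p = 0.023, and -0.34 ± 0.15 under vehicle, adjusted p = 0.19). Averaged over treatments *cpr-1* and *ifb-2*, an intermediate filament gene, were lower (-0.44 ± 0.11 and -0.30 ± 0.10, adjusted p = 0.006 and 0.038), in the direction of *pmk-1*. The remaining genes, *elt-2* and *vit-2*, did not pass in that contrast (-0.031 ± 0.067 and -0.040 ± 0.16, adjusted p = 0.74 and 0.87), where 30.3% of all genes passed in either direction. The summed intestinal genes (5 of 10), germline genes (5 of 12) and epidermal genes (4 of 10) overlapped between the genotypes under vehicle, and under TM the epidermal genes were at 1445 to 4126 in *osm-3* mutants, against 1009 to 1349 in WT animals, without overlap. The epidermal genes did not share one direction under TM. Mean variance-stabilized log2 values were 10.25 in *osm-3* mutants and 7.72 in WT animals for *dpy-5*, and 9.995 and 8.52 for *col-10*. For *lin-26* they were 9.96 in *osm-3* mutants and 10.09 in WT animals. The part of these markers in the results was not tested.

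Other genes of the PMK-1 and PMK-3 cascades were taken from a list of 33, of which 22 were present and 19 tested. Under TM, 1 of the 19 was higher and 3 were lower in *osm-3* mutants, and under vehicle 3 were higher and 0 lower, beside 9.5% and 9.74% of all genes in those directions under TM and 6.37% and 4.28% under vehicle. The list median was -0.058 under TM and 0.035 under vehicle, against -0.10 and -0.041 over all genes. *gpa-12*, the G protein alpha subunit that acts before the p38 cascade in the epidermis, was higher in *osm-3* mutants with both treatments. It had a mean of 223 normalized reads in TM-treated *osm-3* mutants, 127 in TM-treated WT animals, 205 in vehicle-treated *osm-3* mutants and 112 in vehicle-treated WT animals (0.43 ± 0.11 under TM, adjusted p = 0.0087, and 0.47 ± 0.11 under vehicle, adjusted p = 0.0069).

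Under vehicle *dcar-1*, the epidermal receptor that signals through GPA-12, averaged 282 normalized reads in *osm-3* mutants and 179 in WT animals (0.40 ± 0.082, adjusted p = 0.003). *mkk-4*, the kinase that activates PMK-3, averaged 127 in vehicle-treated *osm-3* mutants and 89.9 in vehicle-treated WT animals (0.23 ± 0.066, adjusted p = 0.035). The genes lower in *osm-3* mutants under TM were *daf-19*, the RFX transcription factor of ciliated neurons, with 145 normalized reads in TM-treated *osm-3* mutants and 211 in TM-treated WT animals (-0.31 ± 0.10, adjusted p = 0.042), *rab-1*, a small GTPase of transport from the ER to the Golgi (-0.30 ± 0.085, adjusted p = 0.021), and *mak-2*, a kinase activated by PMK-3 (-0.22 ± 0.073, adjusted p = 0.041). For TM against vehicle 0 of the 19 genes passed in *osm-3* mutants and 1 in WT animals, beside 0.0729% and 1.56% of all genes. At an unadjusted p under 0.05 by limma they were 0 and 5 of the 19, beside 12% and 8.99%. The gene that passed in WT animals was *cebp-1*, a transcription factor downstream of DLK-1 and PMK-3, with a mean of 179 normalized reads in TM-treated WT animals and 88.2 in vehicle-treated WT animals (0.49 ± 0.11, adjusted p = 0.031).

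**Figure D4:**
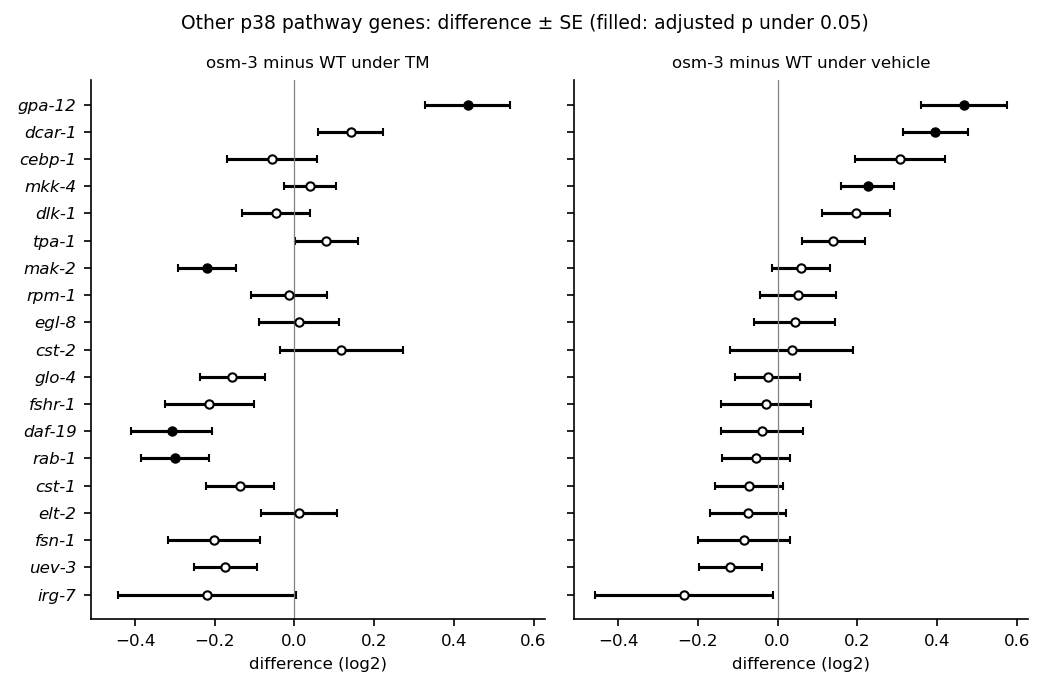
Differences *osm-3* minus WT of the variance-stabilized log2 values (x axis, log2 units, points with bars of 1 SE) of the 19 other p38 pathway genes tested, under TM at the left and under vehicle at the right, ordered by the value under vehicle. Filled points have an adjusted p under 0.05, and *gpa-12* is filled in both panels, at 0.43 under TM and 0.47 under vehicle.

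Of 7 tested genes of other MAP kinase cascades (32 listed), which include the ERK kinase gene *mpk-1* and the phosphatase gene *lip-1*, 0 passed for *osm-3* minus WT under TM and 1 under vehicle, beside 19.2% and 10.6% of all genes. At an unadjusted p under 0.05 by limma, 1 of the 7 did under TM, beside 35.4% of all genes. The gene that passed under vehicle was *fos-1*, an AP-1 transcription factor gene, with 266 ± 15 normalized reads in vehicle-treated *osm-3* mutants and 177 ± 18 in vehicle-treated WT animals (0.35 ± 0.082, adjusted p = 0.0087).

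The genes of a list of intestinal immune effectors did not share one direction. Whether each of them needs PMK-1 for its expression was not tested here. Of the 20 listed, 7 were tested, and 2 were higher and 2 lower in *osm-3* mutants under TM, 2 higher and 4 lower under vehicle, beside 9.5% and 9.74% of all genes under TM and 6.37% and 4.28% under vehicle. The list median was -0.036 under TM and -0.29 under vehicle, against -0.10 and -0.041 over all genes. *dod-24* averaged 281 normalized reads in TM-treated *osm-3* mutants, 716 in TM-treated WT animals, 85.8 in vehicle-treated *osm-3* mutants and 394 in vehicle-treated WT animals (*osm-3* minus WT -0.94 ± 0.15 under TM and -1.22 ± 0.15 under vehicle, adjusted p = 0.0002 and 2.5e-05). *C17H12.8* was lower in *osm-3* mutants too (-0.95 ± 0.28 under TM and -1.48 ± 0.28 under vehicle, adjusted p = 0.026 and 0.0016), as were *cld-9* (-0.38 ± 0.12, adjusted p = 0.046) and *irg-6* (-0.29 ± 0.067, adjusted p = 0.0072) under vehicle.

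The genes higher in *osm-3* mutants were *catp-3*, which encodes a subunit of a cation-transporting ATPase, at 1.97 ± 0.20 under TM and 2.80 ± 0.20 under vehicle (adjusted p = 1.5e-06 and 1.1e-07), and *irg-2*, an infection response gene, at 0.32 ± 0.10 under TM and 0.46 ± 0.10 under vehicle (adjusted p = 0.04 and 0.0064). TM raised *dod-24* in both genotypes, by 0.91 ± 0.15 in *osm-3* mutants and 0.63 ± 0.15 in WT animals (adjusted p = 0.016 and 0.039), while the other 6 tested genes of the list did not pass in either. TM minus vehicle was above 0 for 6 of the 7 genes in *osm-3* mutants and 7 of 7 in WT animals, with list medians of 0.27 and 0.35, against -0.036 and -0.016 over all genes. In each genotype 5 of the 7 had an unadjusted limma p under 0.05, beside 12% of all genes in *osm-3* mutants and 8.99% in WT animals. Averaged over genotypes 3 of the 7 were higher with TM, beside 1.7% of all genes called in either direction: *C17H12.8* (1.12 ± 0.20, adjusted p = 0.005), *dod-24* (0.77 ± 0.11, adjusted p = 0.00035) and *cld-9* (0.35 ± 0.082, adjusted p = 0.035).

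Antimicrobial peptide genes of the epidermis, which need the p38 cascade for induction by wounding or fungal infection, differed among themselves. Of 12 listed, 4 were tested, all of the *nlp* cluster, whose members are similar in sequence, so that reads could have been shared among them. *nlp-29* averaged 509 normalized reads in TM-treated *osm-3* mutants, 212 in TM-treated WT animals, 399 in vehicle-treated *osm-3* mutants and 111 in vehicle-treated WT animals, and was higher in *osm-3* mutants by 0.85 ± 0.14 under TM and 1.08 ± 0.14 under vehicle (adjusted p = 0.0002 and 2.8e-05). *nlp-31* was higher with both treatments too, by 0.42 ± 0.14 under TM and 0.67 ± 0.14 under vehicle (adjusted p = 0.048 and 0.0043). Under TM *nlp-27* was also higher in *osm-3* mutants (mean 1372 against 493 normalized reads in WT animals) and *nlp-28* lower (172 against 614). Of the 4 genes, 3 were thus higher and 1 lower under TM, and 2 higher and 0 lower under vehicle. Of all genes, 9.5% were higher and 9.74% lower under TM, and 6.37% and 4.28% under vehicle. *nlp-27* and *nlp-28* moved with TM in WT animals in opposite directions. *nlp-27* averaged 493 normalized reads in TM-treated WT animals and 1148 in vehicle-treated WT animals (-0.99 ± 0.16, adjusted p = 0.002), and *nlp-28* averaged 614 and 149 (1.31 ± 0.11, adjusted p = 2.7e-07). In *osm-3* mutants neither passed the test for TM.

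The tested genes whose values followed each member most closely over the 16 libraries differed from member to member. For *vhp-1* they were *F15A8.6*, *cebp-1* and *fos-1* (Pearson r 0.92, 0.87 and 0.86 over 16 libraries, Spearman rho 0.96, 0.89 and 0.84). With the group means removed r was 0.86, 0.80 and 0.70, and without the 2 libraries farthest from the median of *vhp-1* 0.86, 0.79 and 0.77. For *pmk-1* they were *C05C8.5*, *C55B6.1* and *B0024.10* (r 0.97, 0.95 and 0.94, and 0.78, 0.55 and 0.79 with the group means removed). *pmk-2* was followed by *ddo-3*, *F12A10.8* and *snrp-40.1* (r 0.91 each), *pmk-3* by *F08F8.10*, *toe-2* and *rrf-1* (0.96, 0.94 and 0.94), *tir-1* by *nhr-64*, *F01D5.5* and *F09F7.5* (0.88, 0.82 and 0.82) and *atf-7* by *C01G6.5*, *C25H3.11* and *hum-2* (0.94, 0.93 and 0.92). Values of a library share its depth and composition, and some groups stand apart (the genotypes for *pmk-1* with both treatments, and for *vhp-1* under vehicle), so these r are descriptions without a test. Among the members, *pmk-2* and *pmk-3* varied together also within groups (r 0.77, and 0.80 with the group means removed), *pmk-1* and *pmk-2* less so (0.80 and 0.41), and *pmk-1* and *pmk-3* little within groups (0.62 and 0.14).

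**Figure D5:**
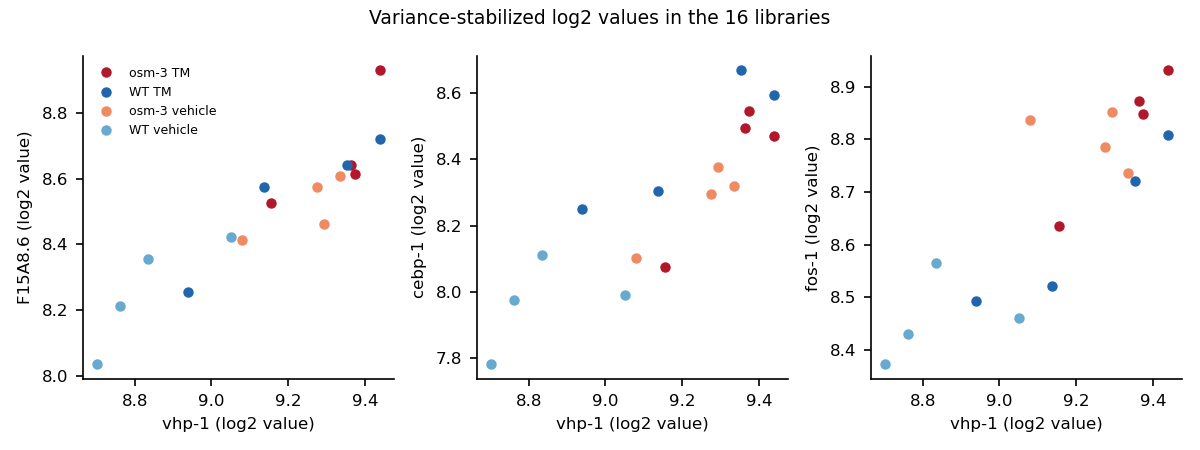
Variance-stabilized log2 values of *F15A8.6*, *cebp-1* and *fos-1* (y axes) against *vhp-1* (x axis) in the 16 libraries, colored by group. The points rise together with *vhp-1* (Pearson r 0.92, 0.87 and 0.86), and the vehicle-treated WT libraries lie at the low end of *vhp-1*, between 8.70 and 9.05.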

How the data were processed

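RNA of whole day 1 adults was depleted of ribosomal RNA and sequenced from stranded libraries. The authors mapped trimmed reads to Ensembl release 94 cDNA sequences (WBcel235) with kallisto 0.43.0, run for stranded reads, made gene totals from them and deposited, for 16 libraries, variance-stabilized log2 values from DESeq2 1.16.1. Tables of the authors' own comparisons (mean counts, fold changes, p-values) were not used. Inverting the transformation gave reads, 100% of them whole to within 0.01, with a count of 0 at 6.68. Of these, 0.177% to 0.531% per library carried no gene name and were left out. Most genes whose sequence name sorts after F46 were not analysed here.

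Contrasts were fitted by limma 3.58.1 in R 4.3.3 with 4 group means, 16 libraries, 12 residual degrees of freedom and eBayes moderation along a mean-variance trend. The 4115 genes tested averaged at least 1 log2 unit more than a count of 0. The limma code was tested on simulated data. Tests were two-sided. Biological replicates carried numbers 1 to 4. After subtraction of group means, libraries sharing a number correlated at 0.33 to 0.86 within *osm-3* mutants and 0.25 to 0.58 within WT animals. The correlation was 0.18 to 0.50 between vehicle-treated genotypes and -0.04 to 0.64 between TM-treated genotypes. Libraries sharing a number were thus regarded as paired, except between TM-treated genotypes. The fit with 4 group means held no block, so its p-values do not use this pairing. It counts paired TM and vehicle libraries as independent in the genotype difference averaged over treatments, where its p-values can be too low. Fits with replicate blocks are among the alternatives. Named are the 6 members, up to 5 list genes past the threshold per list and contrast, and the 3 genes with the highest Pearson r with each member. The members and lists were chosen with earlier results of these data known, and the read ratios after the members' values were seen. Alternatives were other filters (none, 3 log2 units), no trend, robust eBayes, library weights, quantile normalization, median centring, log2 of normalized reads plus 1, voom on the reads, replicate blocks, only the groups compared, and leaving out each library or both TM libraries numbered 4. Figures were drawn with matplotlib 3.10.9 in Python 3.11.15. Reads were amplified by PCR without molecular identifiers, so depth sets counting error only.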

Additional observations from a re-analysis of the deposited data

Results flagged for a closer look

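The sign of TM minus vehicle for *pmk-1* was opposite in the genotypes when libraries with the same replicate number were set against each other: in *osm-3* mutants it came to -0.029, -0.085, -0.07 and -0.038, against 0.098, 0.045, 0.11 and 0.011 in WT animals. The difference between the responses, -0.12, did not pass the limma test (adjusted p = 0.90). For *nlp-27* and *nlp-28* the difference between the TM responses, *osm-3* minus WT, passed the test, at 1.36 ± 0.23 (adjusted p = 0.0069) and -1.13 ± 0.15 (adjusted p = 0.00048). The library of vehicle-treated *osm-3* replicate 3 had 4173301 reads on named genes, far below the others of its group. Of 40 groups of 4 values examined, 1 held such an isolated library, where chance gives about 1 in 20 groups.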

How the results depend on the processing

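Each result was recomputed with 1 choice changed at a time. Over all single-gene and ratio results, 1229 alternatives kept direction and side of the threshold, 29 crossed it to become calls, 26 lost the call and 62 turned the sign, in all cases of differences that were not called. Of the 6 genes, 2 were called for *osm-3* minus WT under vehicle, but 0 with the filter at 3 log2 units, which leaves *pmk-3* and *atf-7* as the only members tested, and 0 to 2 when a library was left out (0 without *osm-3* vehicle replicate 3 or WT vehicle replicate 4). With library weights 3 were called, *pmk-2* being added (adjusted p = 0.0058). Under TM 2 were called, but 0 with that filter, 1 (*pmk-1*) with no filter, quantile normalization, median centring or only the groups compared, 1 to 3 when a library was left out, and 3 with library weights or without both TM libraries numbered 4, *pmk-2* being added (adjusted p = 0.023 and 0.026). Averaged over treatments 3 were called, 0 with the filter at 3 log2 units, and 3 to 4 when a library was left out. *pmk-3* was added with library weights (adjusted p = 0.0021) and when replicate 4 of the TM-treated animals was left out, for *osm-3* mutants (0.014), for WT (0.044) or for both (0.0083), and *atf-7* with quantile normalization (0.13, higher in *osm-3* mutants, adjusted p = 0.037). For TM in WT animals 0 were called, and 1 (*vhp-1*) with library weights, with either replicate block, without both TM libraries numbered 4, and in the range 0 to 1 when a library was left out. For TM in *osm-3* mutants 0 were called, 3 (*pmk-3*, *tir-1* and *vhp-1*) with library weights, 1 (*pmk-3*) without both TM libraries numbered 4, and 0 to 1 when a library was left out. For TM averaged over genotypes 0 were called, 2 (*tir-1* and *vhp-1*) with library weights, 1 (*vhp-1*) with either replicate block or without both TM libraries numbered 4, and 0 to 1 when a library was left out. The lowest library weight was 0.252, for replicate 4 of TM-treated *osm-3* mutants, the highest 5.11, for replicate 1 of vehicle-treated *osm-3* mutants, and the cause of these changes was not tested.

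The replicate block turned 2 further differences into calls that are not paired by the data, *pmk-2* under TM (-0.19, adjusted p = 0.029) and *pmk-3* averaged over treatments (-0.14, adjusted p = 0.038). Beside the blocked values given with the results it changed no other call of a member. It moved the number of all genes called to 193 from 64 for TM in WT animals (244 with blocks within genotype), to 39 from 3 for TM in *osm-3* mutants (360 within genotype), to 735 from 438 under vehicle and to 1413 from 792 under TM for *osm-3* minus WT. Over all alternatives these counts ran from 24 to 595, 0 to 1423, 52 to 1420 and 165 to 1683, those of the difference between responses from 10 to 154 (20 as reported), of the averaged genotype difference from 327 to 2302 (1246 as reported) and of averaged TM from 21 to 1751 (70 as reported).

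Signs turned as follows. With quantile normalization *atf-7* was 0.144 ± 0.064 (SE, adjusted p = 0.13) for *osm-3* minus WT under TM, 0.0276 and 0.0038 for TM in *osm-3* mutants and in WT animals, 0.0157 for averaged TM and 0.0238 for the difference between responses, and *pmk-2* was -0.0169 for TM in *osm-3* mutants, -0.0122 for averaged TM and -0.0093 for the difference between responses. With library weights *tir-1* was 0.0128 and *atf-7* 0.0397 for *osm-3* minus WT under TM, and *pmk-2* was -0.0101, -0.0094 and -0.0015 for TM in *osm-3* mutants, averaged TM and the difference between responses, which voom gave as -0.0033, -0.0022 and -0.0021. With median centring *atf-7* was 0.0229 for *osm-3* minus WT under TM. Without both TM libraries numbered 4, *pmk-2* was -0.0316 for TM in *osm-3* mutants, 0.028 for TM in WT animals, -0.0018 for averaged TM and -0.0596 for the difference between responses, *atf-7* was 0.0077 for TM in WT animals and -0.036 for averaged genotype, and *tir-1* was -0.0207 for the difference between responses. This setting kept the sign for *osm-3* minus WT under TM, at -0.156 for *atf-7* and -0.126 for *tir-1*.

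Leaving out a library turned signs within these ranges. *atf-7* ran from -0.103 to 0.0579 for *osm-3* minus WT under TM, -0.114 to 0.0077 for TM in WT animals and -0.0096 to 0.0708 for averaged genotype. *pmk-1* ran from -0.0086 to 0.0221 for averaged TM, and *pmk-3* from -0.0016 to 0.0708 for TM in WT animals. *pmk-2* ran from -0.0454 to 0.039 for TM in *osm-3* mutants, -0.0394 to 0.0292 for TM in WT animals, -0.0232 to 0.019 for averaged TM and -0.0444 to 0.0449 for the difference between responses. *tir-1* ran from -0.123 to 0.0285 for *osm-3* minus WT under TM and -0.0181 to 0.133 for the difference between responses. The log2 ratio of *pmk-1* to *pmk-2* reads ran from -0.0742 to 0.037 for *osm-3* minus WT under vehicle, that of *pmk-1* to *pmk-3* from -0.00075 to 0.0988 for TM in WT animals, and that of *pmk-2* to *pmk-3* from -0.073 to 0.0166 for TM in WT animals and -0.0315 to 0.0582 for *osm-3* minus WT under TM.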
